A study of Mus musculus with 11 samples.

Results

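Solute carriers are the membrane proteins through which sugars, amino acids, vitamins, hormones, nucleosides and ions cross the endothelium and the choroid plexus. Here 33 of them, known from the blood–brain and blood–cerebrospinal fluid barriers, were described across the cell classes of the mouse cerebrovasculature. They were chosen by name, among 32287 features in the count tables, and sorted into 5 groups by what they carry. Single-cell RNA sequencing was done on brain vessels from 6 R182C-TgN3 and 5 WT-TgN3 mice, with 1 library per mouse. R182C-TgN3 mice, the CADASIL model, have a transgene of human NOTCH3 into which the R182C mutation was placed. WT-TgN3 mice, the controls, have the human gene without it, and both groups keep their own mouse Notch3. Of the R182C-TgN3 mice 3 were 6 months old and 3 were 9 months old, and 4 were female and 2 male. Of the WT-TgN3 mice 3 were 6 and 2 were 9 months old, with 3 females and 2 males. All mice were untreated. Vessel fragments were pulled out with magnetic beads carrying antibodies to CD31, an endothelial surface protein, before they were digested to single cells. As background, NOTCH3 is a receptor of smooth muscle cells and pericytes and not of the endothelial cells, and no group of mice lacked the transgene.

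Brain endothelial cells are sealed by tight junctions, so water-soluble nutrients reach the brain only where a carrier takes them through the cell. Glucose enters through Slc2a1 (GLUT1), large neutral amino acids through the pair of Slc7a5 (LAT1) and its partner chain Slc3a2, lactate and ketone bodies through Slc16a1, and thyroxine through Slco1c1. Endothelial cells of the choroid plexus and circumventricular organs are fenestrated and leaky, and there the barrier lies in the epithelium, while pericytes share the basement membrane of the capillaries.

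The libraries held 66658 barcodes and between 17550806 and 64215050 unique molecular identifiers (UMIs) each, and 58579 cells were kept. Between 1.44% and 11.6% of the barcodes of a library also occurred in another library, 966 distinct barcodes in all. Leaving them out left the number of carriers called in the comparisons below as it was, other than 7 in place of 6 higher in venous cells. Cells were gated on marker genes that include no carrier into 7381 capillary, 5780 arterial, 8849 capillary-venous, 4186 venous and 2041 fenestrated endothelial cells (EC), 535 pericytes and 228 choroid plexus cells. The subtypes are ranges of a marker score, and 24.3% of 37297 gated EC fell under the required lead of 1 subtype over the next and 20.6% lay just above it. As examples of the gate genes, over pooled cells, Mfsd2a was at 252 CPM (counts per 1000000 UMIs of the class) in capillary EC and Gkn3 at 1034 in arterial EC. Plvap was at 2119 in fenestrated EC, Vtn at 10879.7 in pericytes and Ttr at 220097 in choroid plexus cells. Since the cells were picked by these genes, such levels do not test the labels. The UMIs of a class were summed per mouse. This gave sums in all 11 mice for every EC subtype, in 10 mice for pericytes (6 R182C-TgN3 and 4 WT-TgN3) and in 5 mice for choroid plexus (3 and 2), with at least 20 cells in each sum. Levels are CPM of these sums, and as 1 UMI stands for 1 captured transcript end they are not divided by gene length.

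Promoters are shown for 4 carriers that stand for the different layouts described below, Slc2a1 of the barrier endothelium (ENSMUSG00000028645, gene at chr4:119108711-119137983), Slc38a5 of veins (ENSMUSG00000031170, chrX:8271133-8280179), Slco2a1 of fenestrated endothelium (ENSMUSG00000032548, chr9:102988712-103096002) and Slc6a20a of pericytes (ENSMUSG00000036814, chr9:123634770-123678885), in GENCODE coordinates of GRCm38. Each window runs from 250 bases before to 50 bases after the annotated start (RefSeq, GRCm38.p6) and is written 5′ to 3′ on the strand of the gene. The windows lie at chr4:119108495-119108794 (plus strand), chrX:8271131-8271430 (plus strand), chr9:103008237-103008536 (plus strand) and chr9:123678783-123679082 (minus strand), in that order. The Slco2a1 window lies inside the GENCODE gene and that of Slc38a5 nearly so, since GENCODE places the start of these genes further upstream. Capitals mark matches to GC boxes (GGGCGG) and to the core of the hypoxia response element (ACGTG), on either strand.
Slc2a1: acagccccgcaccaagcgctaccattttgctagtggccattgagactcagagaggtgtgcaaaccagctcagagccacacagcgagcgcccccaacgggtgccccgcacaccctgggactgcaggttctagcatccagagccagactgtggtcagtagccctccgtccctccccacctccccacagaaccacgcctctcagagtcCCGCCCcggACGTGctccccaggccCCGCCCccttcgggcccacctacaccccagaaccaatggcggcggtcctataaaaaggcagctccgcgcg
Slc38a5: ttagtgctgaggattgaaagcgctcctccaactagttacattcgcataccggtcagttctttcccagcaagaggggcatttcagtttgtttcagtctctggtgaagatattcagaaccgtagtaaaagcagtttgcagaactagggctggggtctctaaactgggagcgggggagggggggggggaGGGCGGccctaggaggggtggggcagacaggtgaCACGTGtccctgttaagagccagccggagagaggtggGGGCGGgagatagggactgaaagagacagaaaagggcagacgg
Slco2a1: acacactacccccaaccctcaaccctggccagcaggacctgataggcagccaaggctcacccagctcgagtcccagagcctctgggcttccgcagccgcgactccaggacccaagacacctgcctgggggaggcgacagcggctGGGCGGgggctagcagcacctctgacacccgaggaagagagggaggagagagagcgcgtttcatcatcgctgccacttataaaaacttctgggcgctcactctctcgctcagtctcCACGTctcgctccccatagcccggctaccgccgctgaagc
Slc6a20a: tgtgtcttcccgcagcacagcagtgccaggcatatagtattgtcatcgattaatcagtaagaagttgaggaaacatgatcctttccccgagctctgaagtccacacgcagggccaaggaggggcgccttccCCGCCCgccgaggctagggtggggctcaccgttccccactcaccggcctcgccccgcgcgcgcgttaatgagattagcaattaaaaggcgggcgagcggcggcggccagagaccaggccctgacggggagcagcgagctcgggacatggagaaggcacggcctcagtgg

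The Slc2a1 window holds 2 GC boxes with 1 hypoxia core between them. That of Slc38a5 holds 2 GC boxes and a palindrome in which 2 hypoxia cores overlap on opposite strands. Slco2a1 has 1 of each, and Slc6a20a has 1 GC box. Promoter windows were at hand for 25 of the 33 carriers, 43 windows in all, and the other 8 carriers had none. A GC box was found in 25 of the 43 windows, against 35.7% of 32851 mouse windows of the same length, and a hypoxia core in 15, against 19.6%. The core bound by ETS factors (CCGGAA) was in 4 of the 43, against 14.9%, and that of TCF and LEF factors (CTTTGNT) in 10, against 18.6%, all on either strand. Windows of 1 gene overlap, and these matches are descriptions of letters.

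In capillary EC the means of the 33 carriers spanned 0.144 to 2614 CPM. Slco1a4, which carries organic anions, had 2614 ± 464 CPM (mean ± SD, n = 11 mice), with 2102 to 3444 CPM over mice. Slc6a6, the taurine carrier, had 1952 ± 190.3 CPM, Slco1c1, the thyroxine carrier, 1673 ± 132 CPM, and Slc2a1 1105 ± 97.5 CPM. The ranges over mice of Slc6a6 (1639 to 2257 CPM) and Slco1c1 (1468 to 1898 CPM) overlapped, as did those of Slco1a4 and Slc6a6, and that of Slc2a1 (987 to 1285 CPM) lay below both. At the other end Slc6a20a, Slc13a3 and Slc6a13, carriers of proline, dicarboxylates and GABA, had 0.925, 0.167 and 0.144 CPM in capillary EC and were too low to be tested in the comparisons between EC subtypes.

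**Figure D1:**
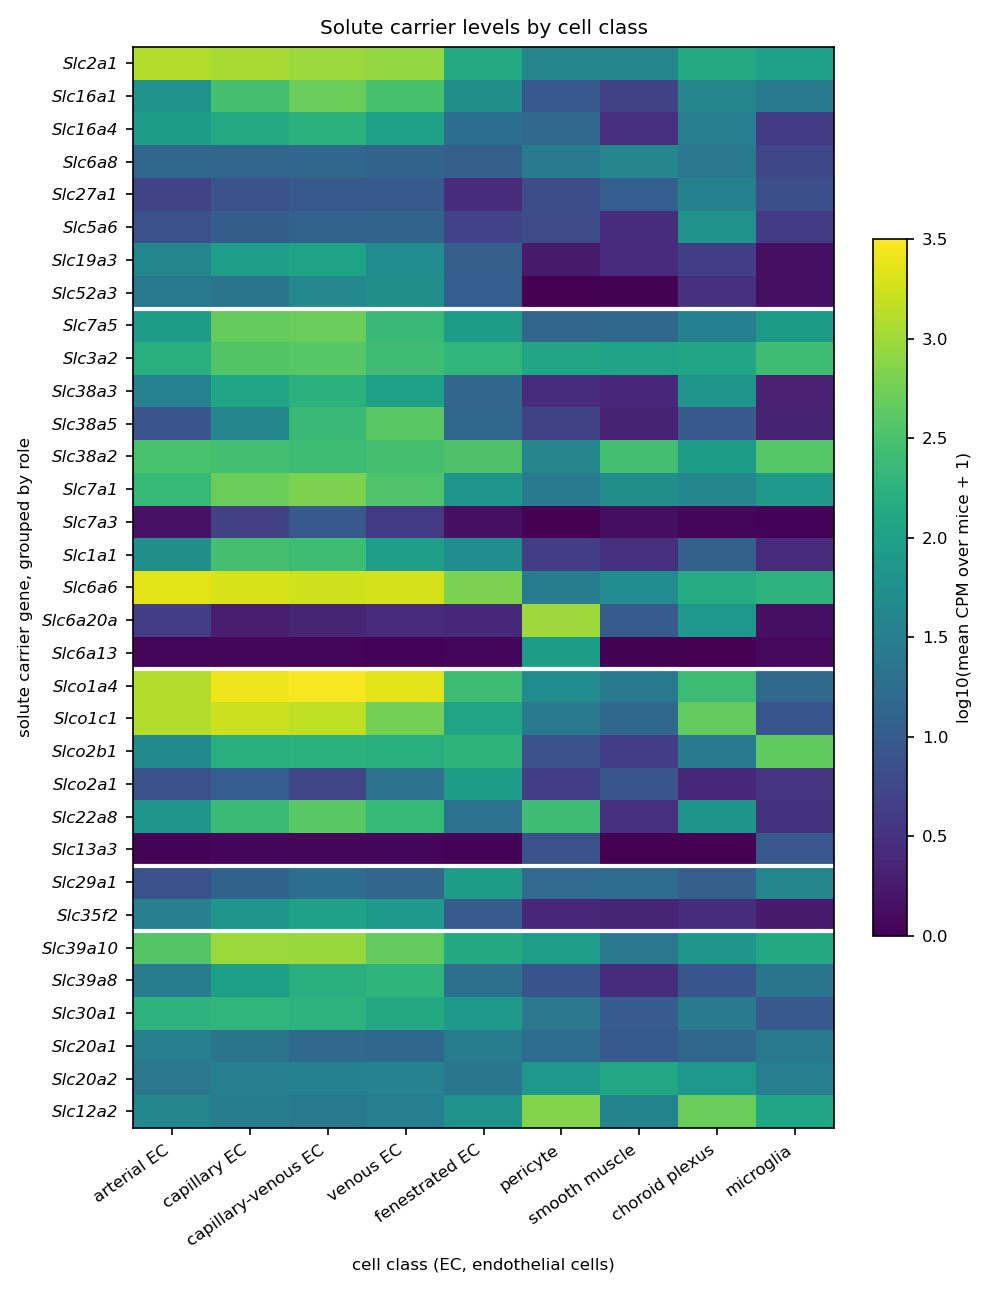
Mean level of each of the 33 carriers (rows, grouped by role, white lines between groups) in 9 cell classes (columns), as log10 of the mean CPM over mice plus 1. The barrier carriers Slc2a1, Slc6a6, Slco1a4 and Slco1c1 are brightest in the arterial to venous columns and dimmer in fenestrated EC, and Slc6a20a, Slc6a13 and Slc12a2 stand out in pericytes.

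The first question was how the carriers are laid out along the vascular tree. The other EC subtypes were each set against capillary EC in 1 fit with the mouse as a block (edgeR quasi-likelihood test, Benjamini-Hochberg adjusted p under 0.05), in which 30 of the 33 carriers and 11267 genes were tested, and the 4 comparisons share the capillary sums. In arterial EC 5 carriers were higher and 22 lower, where 24.2% of all genes tested were called higher and 23.4% lower, with a median log2 fold change of -0.89 over the carriers and -0.014 over all genes. In capillary-venous EC 13 carriers were higher and 6 lower (background 13.6% and 15.3%, median 0.14 against -0.0043). In venous EC 6 carriers were higher and 12 lower (background 27% and 27.8%, median -0.12 against -0.0064), which is near the background in the higher direction. In fenestrated EC 6 carriers were higher and 23 lower (background 28.4% and 27.5%, median -2.35 against -0.0085). The 178 other solute carriers tested in the same fit had medians of 0.052, 0.0045, 0.0022 and 0.062 in the same order, with 47 higher and 32 lower in arterial EC and 48 higher and 43 lower in fenestrated EC. Of the 33 carriers, those with the same highest subtype in 11 of 11 mice included Slc16a1, Slc7a5, Slc3a2, Slc22a8 and Slco1a4 in capillary-venous EC, Slco1c1 and Slc1a1 in capillary EC, Slc38a5 and Slc39a8 in venous EC, and Slco2a1, Slc29a1 and Slc12a2 in fenestrated EC.

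Among the sugar, monocarboxylate and vitamin carriers, Slc2a1 had a lower median in venous than in arterial EC, with overlapping ranges. It ranged over mice from 967 to 1444 CPM (median 1291) in arterial EC, from 987 to 1285 CPM (median 1058) in capillary EC and from 742 to 1072 CPM (median 799) in venous EC. These 3 ranges overlap, and 10 of 11 mice had their highest level in arterial EC. The arterial difference from capillary EC did not pass the test (log2 fold change 0.17 ± 0.088 SE, adjusted p = 0.0983). It passed with a stricter gate (adjusted p = 0.0294) and without WT-TgN3 4 (adjusted p = 0.0470). Capillary-venous (-0.27 ± 0.088, adjusted p = 0.0166) and venous EC (-0.37 ± 0.0884, adjusted p = 3.81e-04) were lower. In WT-TgN3 mice alone the capillary-venous difference was -0.25 and was not called (adjusted p = 0.288). Slc16a1, the lactate and ketone body carrier, was laid out differently. It spanned 32.9 to 85.3 CPM (median 61.8) in arterial EC, 233 to 408 CPM (median 275) in capillary EC and 429 to 613 CPM (median 477) in capillary-venous EC, 3 ranges without overlap. Slc16a1 was thus lower in arteries (log2 fold change -2.32 ± 0.0853 SE, adjusted p = 1.35e-28), higher in capillary-venous EC (0.77 ± 0.0743, adjusted p = 2.44e-12). In venous EC, at 302 ± 65.4 CPM, it did not differ past the threshold (0.042 ± 0.0756, adjusted p = 0.669). Slc52a3, which carries riboflavin, was higher in capillary-venous (43.8 CPM, log2 fold change 1.04, adjusted p = 2.01e-18) and venous EC (52.5 CPM, 1.31, adjusted p = 5.20e-23) than in capillary EC (21.1 CPM). Slc19a3, the thiamine carrier, was lower in both arterial (-1.21) and venous EC (-0.92). The creatine carrier Slc6a8 passed the test in none of the 4 comparisons, with 10.5 to 14 CPM as its subtype means. Slc16a4, another monocarboxylate carrier, was lower in arterial (-0.68, adjusted p = 1.41e-13) and venous EC (-0.46, adjusted p = 8.24e-09) than in capillary EC, where it had 138 ± 16.7 CPM. The fatty acid carrier Slc27a1 and Slc5a6, which carries biotin, were both near 6.98 to 9.78 CPM in capillary EC and lower in arterial EC (log2 fold change -0.67 for each). Over the 8 carriers of the group, 1 was higher and 5 lower in arterial EC, and 4 higher and 1 lower in capillary-venous EC.

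The amino acid carriers had the lowest median of the 5 groups in arterial EC, a log2 fold change of -1.73, and 7 of the 9 tested were lower there. Slc7a5 spanned 58.4 to 129 CPM (median 76.2) in arterial EC and 369.7 to 608 CPM (median 468) in capillary EC, with no overlap (log2 fold change -2.50 ± 0.0912 SE, adjusted p = 1.07e-28). Its partner chain Slc3a2, which also serves other light chains, differed less, with 158 ± 15.4 CPM in arterial and 349 ± 27.3 CPM in capillary EC (log2 fold change -1.14 ± 0.0421 SE, adjusted p = 1.58e-28). Neither range of Slc3a2 met the other, with 126 to 175 CPM against 322 to 402 CPM. In venous EC both were again lower, Slc7a5 by a log2 fold change of -1.01 ± 0.0844 (adjusted p = 5.27e-15) and Slc3a2 by -0.47 ± 0.0411 (adjusted p = 2.21e-14). In capillary-venous EC Slc7a5 was not called (0.062 ± 0.0814, adjusted p = 0.641), and the call of Slc3a2 (0.13 ± 0.0401, adjusted p = 0.0119) was lost with either genotype alone and with a stricter gate. Slc1a1, a glutamate carrier, was lower in arterial (52.2 against 293 CPM, log2 fold change -2.52 ± 0.117 SE, adjusted p = 1.87e-24) and in venous EC (88.4 CPM, -1.81, adjusted p = 8.49e-20). Slc7a3, a carrier of arginine and other cationic amino acids, was low throughout, with 0.486 ± 0.331 CPM in arterial, 3.64 ± 1.38 in capillary and 8.6 ± 2.59 in capillary-venous EC. It was called lower in the arterial (-3.03, adjusted p = 1.70e-13) and higher in the capillary-venous class (1.17, adjusted p = 5.28e-08). Slc7a1, a relative with the same kind of substrates, was lower in arterial (224 against 514 CPM, -1.21, adjusted p = 1.07e-16) and higher in capillary-venous EC (653 CPM, 0.33, adjusted p = 0.00189). The taurine carrier Slc6a6 (0.23, adjusted p = 0.0121, and adjusted p = 0.286 in WT-TgN3 mice alone) and the glutamine and alanine carrier Slc38a2 (0.15, adjusted p = 0.00289) were higher in arterial EC.

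Slc38a5, which exchanges glutamine and other neutral amino acids, had the largest venous log2 fold change of the 30 carriers tested. It spanned 24.4 to 52.4 CPM (median 41.6) in capillary EC, 154 to 265 CPM (median 236) in capillary-venous EC and 307 to 478 CPM (median 403) in venous EC. The 3 ranges do not overlap, and every mouse had its highest level in venous EC. The log2 fold change was 2.45 ± 0.215 in capillary-venous (adjusted p = 1.42e-13) and 3.30 ± 0.215 in venous EC (adjusted p = 7.37e-19). In arterial EC 9 mice had 0.634 to 3.55 CPM, R182C-TgN3 4 had 46.2 CPM and WT-TgN3 1 had 18.1 CPM. Both of these arterial sums also had the highest summed venous markers, 1475 and 1320.5 CPM over 9 genes against 535 to 974 CPM in the other mice. The part of these cells in the result was not tested. The arterial log2 fold change of -2.56 ± 0.337 (adjusted p = 6.72e-09) became -3.68 without R182C-TgN3 4. The related Slc38a3, another glutamine carrier, was lower in arterial EC (34.9 against 115 CPM, -1.73, adjusted p = 6.38e-23) and was highest in capillary-venous EC (175 CPM, 0.60, adjusted p = 3.06e-09).

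**Figure D2:**
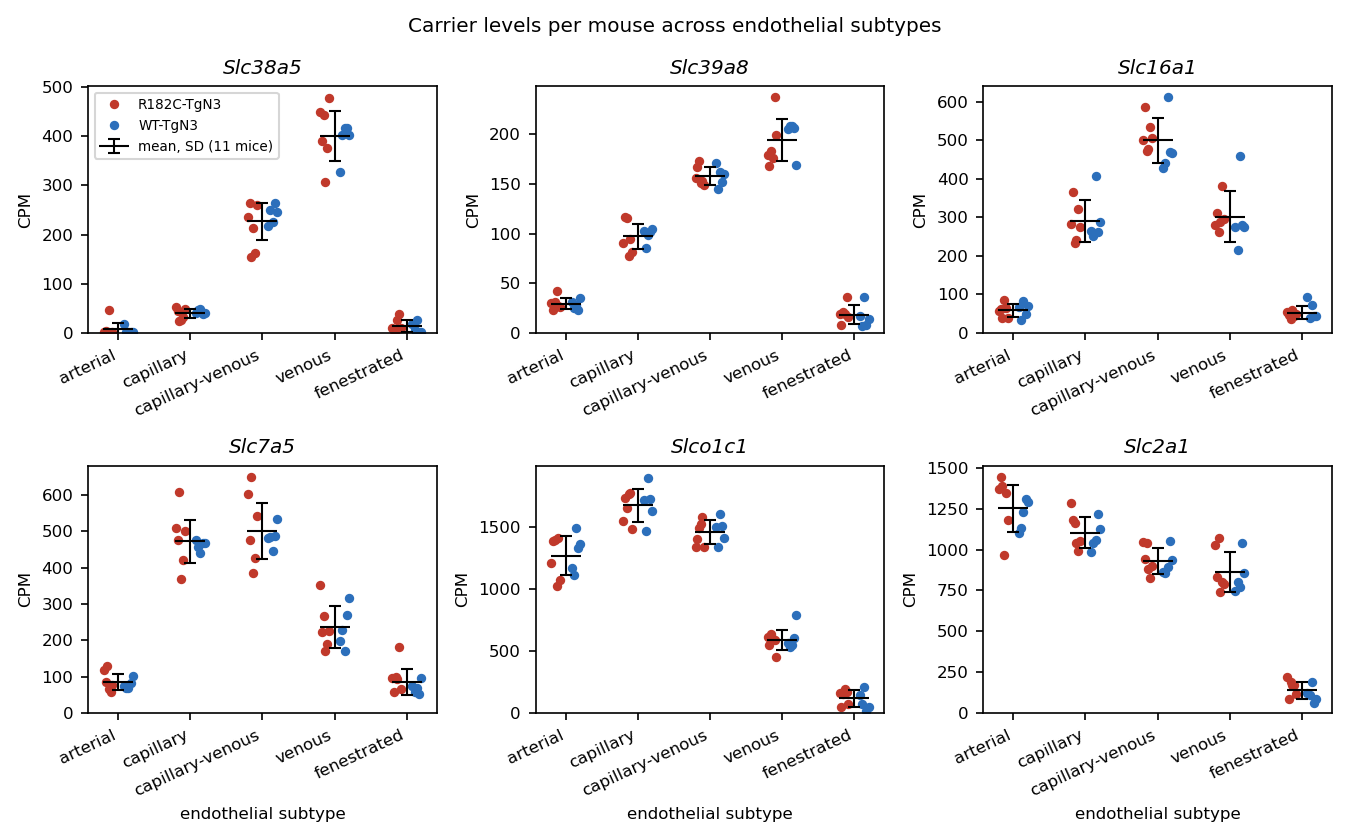
CPM of 6 carriers in each mouse across the 5 endothelial subtypes (red, R182C-TgN3, blue, WT-TgN3, black bars, mean and SD of 11 mice). Slc38a5 and Slc39a8 climb towards venous EC, Slc16a1 peaks in capillary-venous EC, and Slco1c1 drops in venous EC. Slc2a1 is mostly lower in venous than in arterial EC, with overlap. Slc7a5, Slco1c1 and Slc2a1 are low in fenestrated EC, and the genotypes overlap in every panel.

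Of the 5 organic anion and hormone carriers tested, 4 were lower in arterial EC. Slco1a4 was lower in arterial EC, with 986 to 1739 CPM (median 1184) against 2102 to 3444 CPM (median 2446) in capillary EC, and the ranges do not overlap (log2 fold change -1.06 ± 0.122 SE, adjusted p = 2.01e-10). In capillary-venous (0.16 ± 0.12, adjusted p = 0.37) and venous EC (-0.21 ± 0.12, adjusted p = 0.131) it was not called. The latter passed at adjusted p = 0.0331 with doublets kept and 0.0489 with a stricter gate. Reads of Slco1a4 may be shared with its near relatives in the same gene cluster. Slco1c1, by contrast, had its wider step on the venous side. It spanned 1019 to 1488 CPM (median 1333) in arterial, 1468 to 1898 CPM (median 1719.6) in capillary and 447 to 786 CPM (median 584) in venous EC, where it did not overlap the capillary range (log2 fold change -1.52 ± 0.138 SE, adjusted p = 1.08e-13). The arterial difference was small (-0.41 ± 0.134, adjusted p = 0.0105) and missed the threshold with DESeq2 (adjusted p = 0.0769) and in WT-TgN3 mice alone (0.231). Slc22a8, a carrier that moves organic acids out of the brain, was lower in arterial (67.1 CPM, -1.88, adjusted p = 4.34e-27) and higher in capillary-venous EC (398 against 245 CPM, 0.69, adjusted p = 4.08e-12). Slco2b1, a further organic anion carrier, was lower in arterial EC (46.5 against 163 CPM, -1.82, adjusted p = 4.28e-24). Slco2a1, the prostaglandin carrier, had 4.33 ± 3.42 CPM in capillary-venous, 10.2 ± 4.68 in capillary and 19.7 ± 9.11 in venous EC. It was thus lower in the first (log2 fold change -1.35 ± 0.288 SE, adjusted p = 1.82e-04) and higher in the last (log2 fold change 1.05 ± 0.227 SE, adjusted p = 8.47e-05). The former missed the threshold in WT-TgN3 mice alone (adjusted p = 0.0683).

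Both members of the nucleoside group, the adenosine carrier Slc29a1 and Slc35f2, were lower in arterial (-0.72 and -1.07) and higher in capillary-venous EC (0.60 and 0.51), and neither was called in venous EC. Of the metal, phosphate and ion carriers, Slc39a8, which takes up zinc and manganese, followed the venous gradient of Slc38a5 on a smaller scale. It had 22.8 to 42.3 CPM (median 28.2) in arterial, 77.1 to 117 CPM (median 98.4) in capillary and 168 to 237 CPM (median 199.5) in venous EC, with no overlap of the 3 ranges and a venous log2 fold change of 0.99 ± 0.0767 (adjusted p = 5.28e-16). The zinc importer Slc39a10 went the other way, with 941 ± 127 CPM in capillary and 449 ± 63.1 in venous EC (log2 fold change -1.07 ± 0.0862 SE, adjusted p = 2.01e-15). It was lower in arterial EC as well (370.1 CPM, -1.36, adjusted p = 4.92e-19). Slc30a1, the zinc exporter, was lower in all 4 other subtypes, by log2 fold changes of -0.16 in arterial, -0.15 in capillary-venous, -0.59 in venous and -1.42 in fenestrated EC. The phosphate carrier Slc20a1 was higher in arterial EC (31.9 against 21.5 CPM, log2 fold change 0.56 ± 0.0896 SE, adjusted p = 5.16e-07). So was Slc12a2 (NKCC1), which takes up sodium, potassium and chloride (39.4 against 28.6 CPM, log2 fold change 0.44 ± 0.0725 SE, adjusted p = 9.68e-07). In capillary-venous EC both were lower, Slc20a1 by a log2 fold change of -0.55 (adjusted p = 5.89e-06) and Slc12a2 by -0.25 (adjusted p = 0.0078).

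Fenestrated EC held less of most barrier carriers and more of a few others. Their summed endothelial markers were 78.6% to 121% of the capillary level of the same mouse. The 6 barrier markers Cldn5, Mfsd2a, Abcb1a, Lef1, Pltp and Itm2a summed to 13.6% to 27.2% of it. Of these, Mfsd2a and Itm2a were also gate genes of capillary and capillary-venous EC, so the gate may set part of this deficit. Slco1c1 (-4.06 ± 0.172, adjusted p = 1.19e-26), Slc22a8 (-3.88 ± 0.118, adjusted p = 1.22e-32) and Slco1a4 (-3.55 ± 0.143, adjusted p = 1.23e-27) had the widest deficits of the carriers. Slc2a1 had 57.4 to 217 CPM (median 121) in fenestrated EC, far below its capillary range (log2 fold change -3.11 ± 0.108 SE, adjusted p = 3.17e-30), and stood at 4.71% to 17.7% of the capillary level of the same mouse, next to the barrier markers. Slc7a5 (85.6 CPM, -2.61, adjusted p = 3.55e-27) and Slc16a1 (53.1 CPM, -2.52, adjusted p = 6.73e-27) were lower too, and Slc3a2, which many cells use, less so (202 CPM, -0.81, adjusted p = 2.26e-21). In the other direction Slco2a1 rose to 54.5 to 153 CPM (median 76.6) over mice from 4.54 to 18.1 CPM in capillary EC, with no overlap (log2 fold change 3.24 ± 0.216 SE, adjusted p = 1.09e-18). Slc29a1 likewise had 29.6 to 197 CPM (median 77.6) against 5.47 to 15.6 CPM (log2 fold change 2.93 ± 0.161 SE, adjusted p = 5.59e-22). Both were highest in fenestrated EC in 11 of 11 mice. Slc12a2 was also higher (60.1 against 28.6 CPM, log2 fold change 1.05 ± 0.0839 SE, adjusted p = 8.47e-16). Smaller rises passed the test for Slc20a1 (0.37), Slc38a2 (0.22) and Slco2b1 (0.20), an organic anion carrier. In WT-TgN3 mice alone 3 carriers were called higher in place of 6.

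Outside the endothelium the question was which carriers the pericytes and the choroid plexus hold of their own. Both classes were set against capillary EC in 1 fit of 8967 genes and 30 carriers with the mouse as a block, and Slc7a3, Slco2a1 and Slc13a3 were too low to be tested. In pericytes 5 carriers were higher and 20 lower (background 25.2% and 27.5%). The median was -3.82 over the carriers, -3.66 with the carrier at 0 placed at its bound, -0.021 over all genes and 0.28 over 129 other solute carriers. The endothelial marker list amounted to 4.97% to 7.93% of its capillary level in pericyte sums. Cells in which this list stood too high were left out by the gate, which limits that share. For 16 of 31 carriers the median over mice was at or under 7.93%, the highest share of the marker list in any mouse. Single sums ran higher for some of them, up to 43.7% for Slc38a5 and 137% for Slco2a1. Slc6a20a, a carrier of proline, was the leading pericyte carrier. It had 745 to 1336 CPM (median 966) in pericytes against 0 to 1.92 CPM in capillary EC (log2 fold change 9.92 ± 0.251 SE, adjusted p = 3.73e-24). Reads it shares with its paralogue Slc6a20b may be missing. Slc12a2 spanned 483 to 985 CPM (median 735) against 22.6 to 42.5 CPM (log2 fold change 4.59 ± 0.151 SE, adjusted p = 1.34e-21). Slc6a13, a GABA and taurine carrier, spanned 67.5 to 112 CPM (median 81.9) against 0 to 0.859 CPM (log2 fold change 8.63 ± 0.39 SE, adjusted p = 1.79e-16). The capillary side of that comparison held 4 UMIs of Slc6a13 in 10 mice, against 151 in pericytes, so the size of the fold is loosely set (pooled ratio 719, 95% counting interval 275 to 2672). For Slc6a20a it held 34 UMIs against 1864 (pooled ratio 1044, 95% counting interval 744 to 1512). None of these 3 overlapped with capillary EC in any mouse. Markers of fibroblasts summed to 116 to 329 CPM in R182C-TgN3 and 209 to 372 CPM in WT-TgN3 pericyte sums. In capillary EC the same markers summed to 0.803 to 3.69 CPM and 0.987 to 2.40 CPM. No mouse had 20 gated fibroblasts (98 cells in all), so carrier levels of fibroblasts are not given. Their part in the pericyte levels was not tested. The phosphate carrier Slc20a2 (71.6 against 31.5 CPM, log2 fold change 1.14 ± 0.19 SE, adjusted p = 6.31e-06) and the creatine carrier Slc6a8 (27 against 12.8 CPM, log2 fold change 1.01 ± 0.281 SE, adjusted p = 0.00315) were higher as well. Slc22a8 had 155 to 335 CPM (median 262) in pericytes and 212 to 279 CPM (median 244) in capillary EC, and the difference was not called (log2 fold change -0.069 ± 0.129 SE, adjusted p = 0.687).

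The carriers of the barrier core were far lower in pericytes. Slc2a1 had 22.4 to 63.4 CPM with a median of 32.5 (log2 fold change -5.06 ± 0.247 SE, adjusted p = 2.79e-17). Slc6a6, the taurine carrier, had 6.43 to 87.7 CPM with a median of 21.4 (log2 fold change -6.36 ± 0.367 SE, adjusted p = 1.74e-15), and Slc1a1 had 3.42 CPM (-6.34, adjusted p = 1.51e-16). No pericyte range of these carriers met the capillary range. Slco1c1 (-6.31, adjusted p = 5.89e-20), Slco1a4 (-6.01, adjusted p = 2.82e-17), Slc16a1 (-5.59, adjusted p = 3.58e-16) and Slc7a5 (-5.31, adjusted p = 3.21e-17) were lower too, and Slc3a2 differed the least of these (112 CPM, -1.81, adjusted p = 4.34e-13). No UMI of Slc52a3 was counted in the pericytes of 10 mice, against 725 in their capillary EC, which places it at least 12.7-fold lower when 3 counts over the group are taken as the floor. Slc19a3 had 2 UMIs, 80.9-fold fewer, as CPM, than capillary EC (95% counting interval 22.4 to 668). These intervals cover counting error only.

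In choroid plexus sums 6 carriers were higher and 20 lower (background 31.1% and 33.6%). The median was -2.30 over the carriers, -0.085 over all genes and 0.66 over 129 other solute carriers, of which 63 were higher. The markers of choroid plexus took 168285 to 290974 CPM of these sums, so that CPM of any other gene is pressed down, which the normalization of the fit takes into account. Endothelial markers summed to 2288 CPM in R182C-TgN3 4 and 1716 CPM in WT-TgN3 1, against 72.6 to 637 CPM in the other 3 mice. Slc6a20a reached 91.7, 84.7, 83.9 CPM in R182C-TgN3 2, 4 and 6 and 15.1 and 91.8 CPM in WT-TgN3 1 and 5 (log2 fold change 6.63 ± 0.36 SE, adjusted p = 7.25e-16). Slc12a2, which the epithelium uses in moving salt and fluid, had 503, 329.6, 555, 472 and 665 CPM in the same order (log2 fold change 4.60 ± 0.19 SE, adjusted p = 1.05e-18). Neither overlapped with capillary EC. Slc5a6, the carrier of biotin and pantothenate, was at 47, 47.1, 64, 75.3 and 73.1 CPM against 3.69 to 14 CPM in capillary EC (log2 fold change 2.97 ± 0.259 SE, adjusted p = 2.99e-11). Slc27a1, a fatty acid carrier (33.6 CPM, 2.88, adjusted p = 2.54e-09), Slc20a2 (71.4 CPM, 1.87, adjusted p = 2.03e-09) and Slc6a8 (23.7 CPM, 1.59, adjusted p = 2.14e-05) completed the 6 that were higher.

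Slco1c1, which is known from the choroid plexus as well as from brain capillaries, was at 381, 443, 393, 562 and 484 CPM in the same 5 mice, and it was lower than in capillary EC (log2 fold change -1.53 ± 0.225 SE, adjusted p = 7.28e-07). The 2 sums rich in endothelial markers had 443 and 562 CPM of Slco1c1, against 381 to 484 CPM in the others. These overlap, but each of the 2 sums was the highest of its genotype. In Slco1a4 they held 612 and 432 CPM against 68.3 to 75.2 CPM in the others (log2 fold change -3.64 ± 0.339 SE, adjusted p = 1.21e-10). Slc2a1 followed Slco1a4, with 254 and 221 CPM against 39.6 to 119.9 CPM (log2 fold change -2.96 ± 0.274 SE, adjusted p = 1.06e-10). Slc7a5 (-4.00, adjusted p = 2.35e-13), Slc16a1 (-3.05, adjusted p = 1.37e-11) and Slc3a2 (-1.17, adjusted p = 1.50e-07) were lower as well. Of the 3 widest deficits, Slc35f2 rested on 1 UMI in 5 mice, 207-fold fewer, as CPM, than in capillary EC (95% counting interval 37.0 to 8171). The log2 fold change of Slc1a1 was -5.50 ± 0.352 (adjusted p = 3.38e-14) and went from -6.20 without WT-TgN3 1 to -4.58 without WT-TgN3 5. That of Slc19a3 was -4.84 ± 0.367 (adjusted p = 1.58e-12) and became -5.61 without WT-TgN3 1. Slc38a3, with 65.8, 18.8, 83.9, 70.2 and 87.4 CPM, was not called (-0.17, adjusted p = 0.431).

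**Figure D3:**
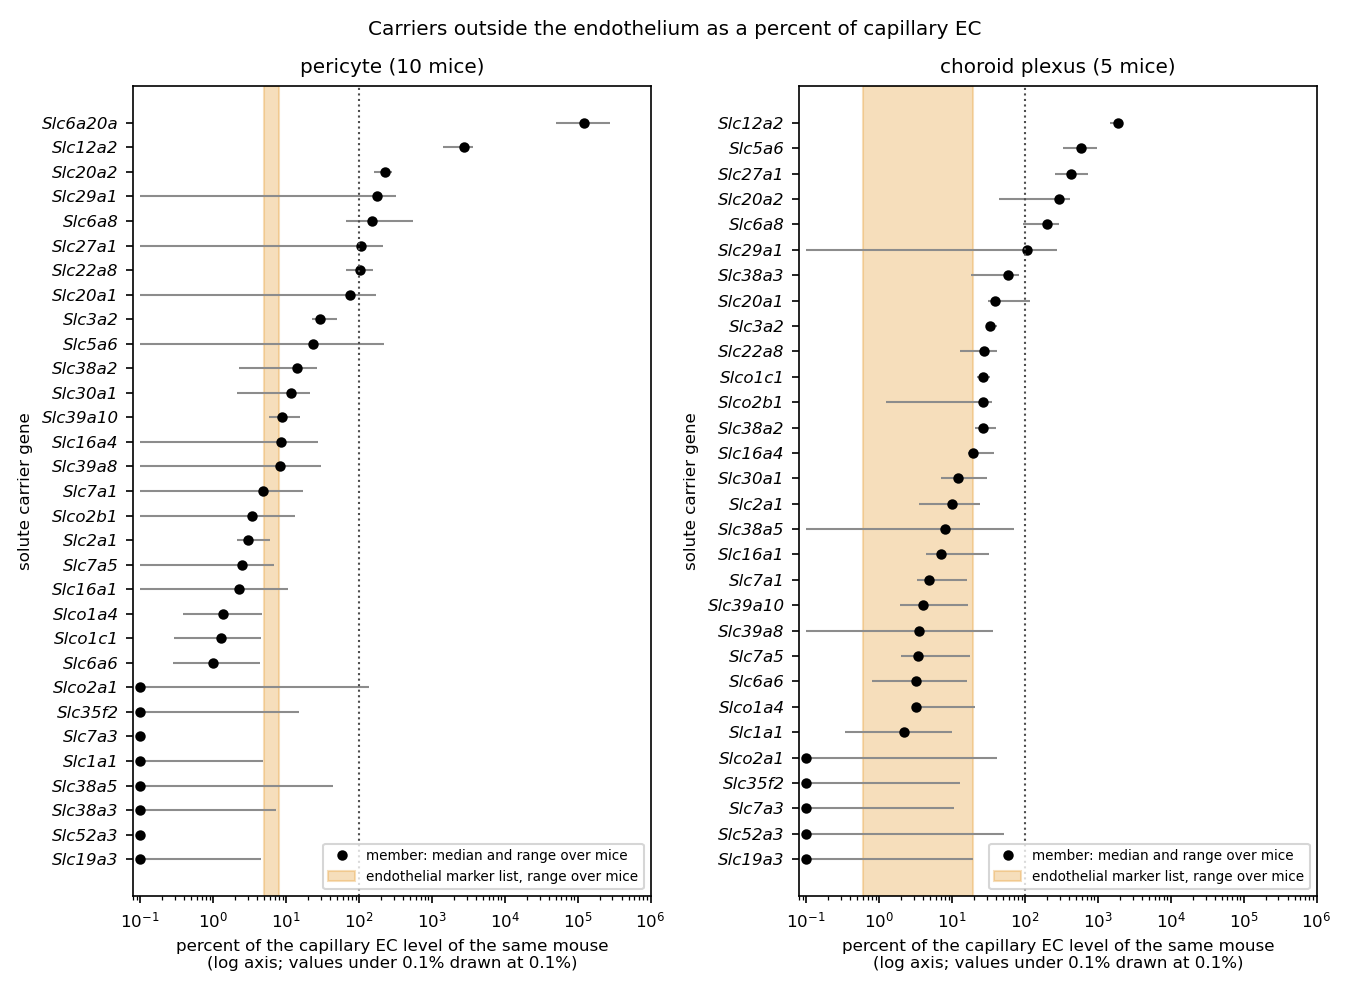
Level of the carriers in pericytes (left, 10 mice) and choroid plexus (right, 5 mice) as a percent of the capillary EC level of the same mouse, on a log axis (points, median, lines, range over mice, shaded band, the summed endothelial markers, dotted line, 100%). Carriers with no UMI in the capillary EC of some of these mice, among them Slc6a13, are not drawn. In pericytes the medians of 16 of 31 carriers lie at or under the top of the band, and those of Slc6a20a and Slc12a2 lie far above 100%.

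Microglia, which do not form the barrier, served as a guide to how much free RNA of the endothelium could add to another class. Their endothelial markers summed to 0.835% to 1.62% of the capillary level. Cells high in a second marker list were left out by the gate, so the gate also limits these shares. Of 30 carriers 9 had a median over mice at or under the highest of these shares, among them Slco1a4 and Slco1c1, at 15 and 7.7 CPM in microglia. The other 21 had a median above it, and 18 of these were above it in every mouse. Medians of Slc2a1, Slc16a1 and Slc7a5 were 8.62%, 8.75% and 16.4% of the capillary level. Slco2b1 had 354 to 586 CPM (median 439) in microglia against 134 to 201 CPM in capillary EC, with no overlap, and Slc38a2 had 380.0, Slc3a2 258, Slc12a2 117 and Slc13a3 7.87 CPM. Slc13a3, a dicarboxylate carrier, had means of 0.0768 to 0.167 CPM over the EC subtypes and had 6.32 CPM in pericytes. These are levels, with no test. In smooth muscle cells Slc38a2 (271 CPM) and Slc20a2 (122 CPM) had the highest means of the carriers, and Slc6a20a had 9.22 CPM there.

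The question of the study itself, whether the R182C mutation changes these cells, was asked of the carriers in each class by comparing R182C-TgN3 with WT-TgN3 sums. With edgeR, 0 carriers passed the threshold among 30 tested in capillary, 29 in arterial, 30 in capillary-venous, 30 in venous and 27 in fenestrated EC, 6 in pericytes, 21 in choroid plexus and 31 in all brain EC as 1 class. The background was 0% of all genes called in every EC class and in choroid plexus and 0.0379% in pericytes. That pericyte share is 1 gene, the human NOTCH3 transgene, with 1256 CPM in R182C-TgN3 and 486 in WT-TgN3 pericytes. DESeq2 called 0 carriers too, and at an unadjusted p under 0.05 edgeR had 2 of 27 in fenestrated EC, 1 of 30 in venous EC, 1 of 6 in pericytes and 0 in the other classes. Over all genes tested, 314 of 8982, 268 of 10700 and 134 of 2640 had such a p in these 3 classes. In capillary EC the difference of Slc2a1 was 0.084, 95% interval -0.10 to 0.27 on the log2 scale and of Slc7a5 0.10, 95% interval -0.13 to 0.34. For Slc16a1 it was 0.0033, 95% interval -0.24 to 0.25, for Slco1a4 -0.035, 95% interval -0.28 to 0.21 and for Slco1c1 0.013, 95% interval -0.15 to 0.18. Intervals are 1.96 SE either way, and a change inside them is left undecided by 11 mice. Slc3a2, the carrier with the smallest p in arterial EC and in all brain EC, was at 0.12, 95% interval -0.074 to 0.32 and 0.12, 95% interval -0.036 to 0.28. The same measure for Slc12a2 in capillary EC was -0.20, 95% interval -0.49 to 0.081 and for Slco2a1 in capillary-venous EC -0.72, 95% interval -1.69 to 0.24.

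**Figure D4:**
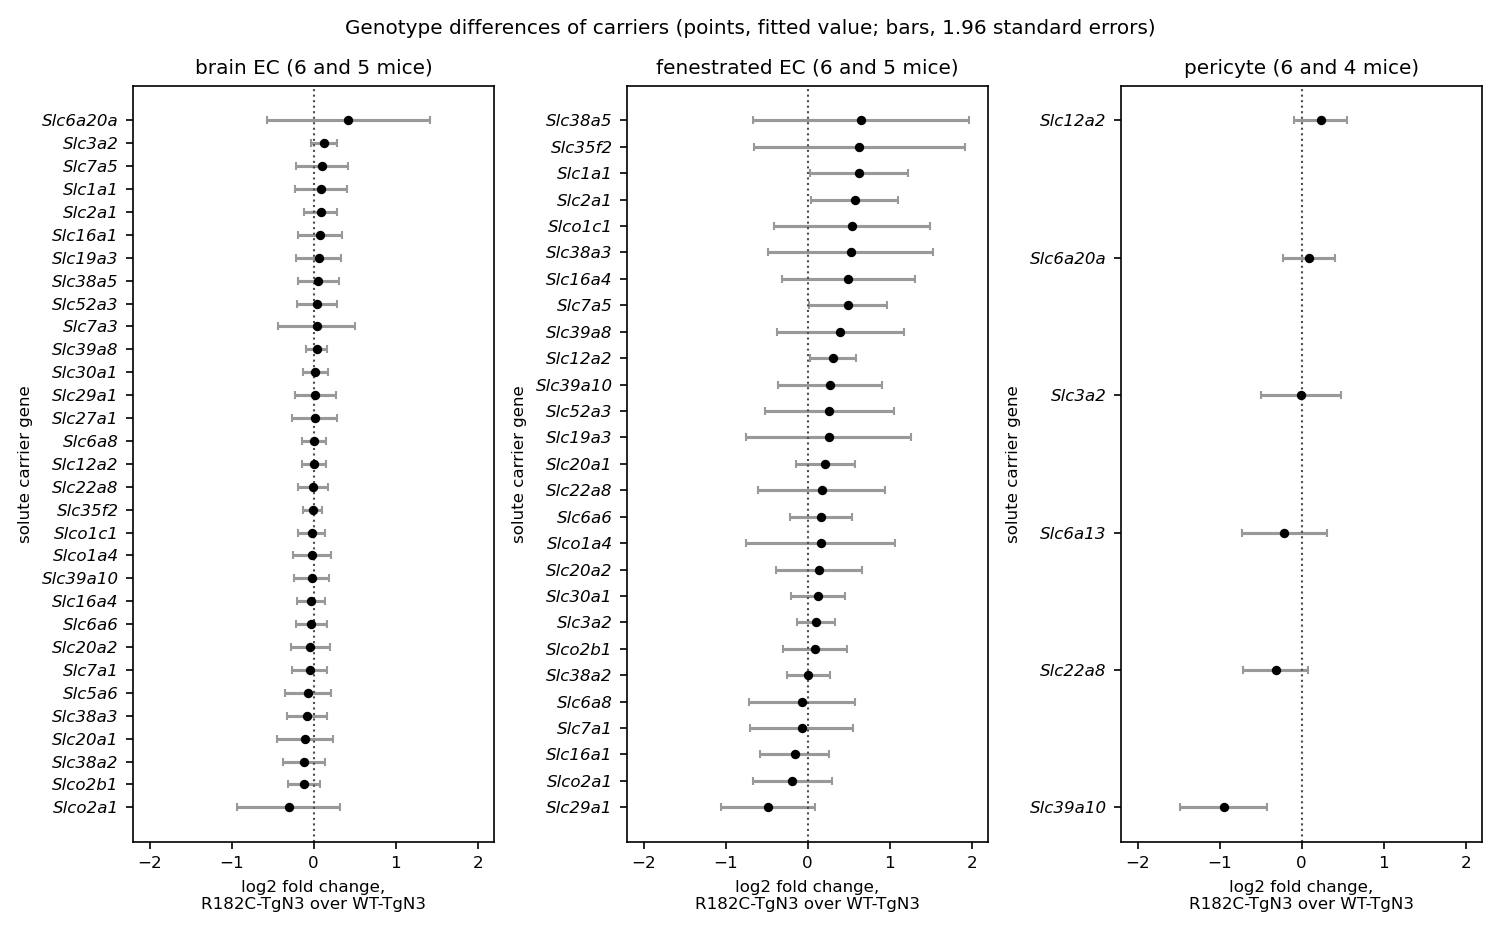
Log2 fold change of each tested carrier, R182C-TgN3 over WT-TgN3 (x axis), in all brain EC, fenestrated EC and pericytes (points, fitted value, bars, 1.96 standard errors). The brain EC values lie near 0, 22 of 27 in fenestrated EC are above 0, and in pericytes Slc39a10 is the 1 carrier whose bar does not cross 0.

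In fenestrated EC 22 of 27 carriers had a higher fitted level in R182C-TgN3, with a median of 0.21 against 0.0028 over all 8982 genes tested. Slc12a2 had 44.8, 66.9 and 82.8 CPM (lowest, median and highest) in R182C-TgN3 and 45.9, 52.6 and 64.1 CPM in WT-TgN3 mice, which overlap (log2 fold change 0.31 ± 0.145 SE, unadjusted p = 0.0483, adjusted p = 0.9999). Slc2a1 had 87.3, 173 and 217 CPM and 57.4, 109.5 and 187 CPM, which overlap as well (log2 fold change 0.57 ± 0.27 SE, unadjusted p = 0.0488, adjusted p = 0.9999). The barrier markers in the same sums were 1818, 2723 and 3111 CPM in R182C-TgN3 and 1716, 2101 and 3206 CPM in WT-TgN3 mice, and their part in the result was not tested. In venous EC Slco2b1 had 117, 137 and 175 CPM in R182C-TgN3 and 147, 172 and 188 CPM in WT-TgN3, with overlap (log2 fold change -0.23 ± 0.103 SE, unadjusted p = 0.0394, adjusted p = 0.9998).

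In pericytes the zinc importer Slc39a10 was the 1 carrier of 6 whose genotypes did not overlap, where 1.4% of the 2640 genes tested did not overlap. It had 51.5, 62.3 and 82.3 CPM in 6 R182C-TgN3 and 95.1, 122 and 143 CPM in 4 WT-TgN3 mice, so every R182C-TgN3 mouse was lower. The difference did not pass the adjustment (log2 fold change -0.95 ± 0.271 SE, unadjusted p = 0.00166, adjusted p = 0.627). These values rest on 130 UMIs over 10 mice. The alternatives put the log2 fold change between -1.05 and 0.51 with adjusted p from 0.458 to 0.9997. It changed sign when pericytes were taken from Leiden clusters in place of the gate. Endothelial markers, whose cells hold Slc39a10 at 941 CPM in capillaries, summed to 566 to 749.6 CPM in the R182C-TgN3 and 642 to 987 CPM in the WT-TgN3 pericyte sums. Barrier markers summed to 135 to 390.0 and 261 to 592 CPM. Their part in the result was not tested. Within batch 1 Slc39a10 was at 51.5 and 54.7 CPM in R182C-TgN3 and 139.7 in WT-TgN3, within batch 3 at 69.8 and 81 against 95.1 and 143, and within batch 4 at 82.3 against 104. Batch 2 held 1 R182C-TgN3 mouse and no WT-TgN3 mouse. The pericyte carriers Slc6a20a (0.089, 95% interval -0.23 to 0.41), Slc12a2 (0.23, 95% interval -0.093 to 0.56), Slc6a13 (-0.21, 95% interval -0.73 to 0.31) and Slc22a8 (-0.32, 95% interval -0.71 to 0.081) overlapped between genotypes. In choroid plexus, with 3 against 2 mice, Slc5a6 and Slco1c1 did not overlap, 2 of 21 carriers where 13.3% of the 5999 genes tested did not overlap. Both had intervals that reach across 0 (-0.33, 95% interval -0.995 to 0.33 and -0.26, 95% interval -0.82 to 0.30). The smallest p there belonged to Slc30a1 (0.64, 95% interval -0.58 to 1.86).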

How the data were processed

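UMI counts per gene and called barcode were deposited by the authors without normalization, 1 table per mouse, made with Cell Ranger 7.0.0 against the mm10 mouse transcriptome (GRCm38) with human NOTCH3 added, per the labels and the study's methods. Barcodes under 500 genes or over 10% mitochondrial UMIs were dropped, and 3046 doublets (the highest simulated-doublet scores, 0.8% per 1000 barcodes) were removed. The mean log level of each marker list was divided by its median in reference cells. These were cells with the largest detected share for that list, and a share of at least 0.5. Each kept cell was given to the list with the highest such relative level, if this was at least 0.4 and no other list exceeded 0.6 of it. EC were given to the subtype whose mean z-score led by at least 0.2. This levels rule replaced a planned count of detected markers. UMIs were summed per mouse and class for mice with at least 20 cells. As the study did, genes of ribosomal and mitochondrial proteins or RNAs and those named Gm or Rik were not tested.

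The quasi-likelihood test of edgeR 4.0.16 (R 4.3.3) was run on the sums after filterByExpr and TMM scaling, with Benjamini-Hochberg adjustment over all genes of a comparison and the mouse as a block between classes. Genotypes were compared without covariates. DESeq2 1.42.0, other size factors, no filter, covariates, other gates, Leiden clusters (scanpy 1.11.5, leidenalg 0.10.2), other cell filters and leaving out mice were tried as alternatives, and leaving out shared barcodes and pooling brain EC were added after seeing the data. The other steps ran in Python 3.11.15, and the genotype fit was tested on counts simulated for brain EC and pericytes. Between 1504018 and 4981816 UMIs per mouse stood behind a capillary sum, 74095 to 458990 behind a pericyte sum and 106200 to 1818435 behind a choroid plexus sum, so carriers under about 10 CPM rest on few counts in the last 2. The 33 carriers, their role groups and the marker lists were chosen with earlier results of these data known. Full values are given for the 3 carriers with the largest called difference in each direction of a comparison, for Slc2a1, Slc7a5, Slc3a2, Slc16a1, Slco1a4 and Slco1c1 throughout, and for the carrier with the smallest p per class between genotypes, and the other carriers named were chosen after their values were seen. Age and batch cannot be told apart, since each batch held mice of 1 age.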

Additional observations from a re-analysis of the deposited data

Results flagged for a closer look

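Within groups of 4 to 6 mice, 84 sets of values were screened, for 6 main carriers and the carriers with the smallest genotype p per class. In 7 of these sets 1 mouse was far from the rest (Dixon's criterion), where chance alone marks about 1 in 20. WT-TgN3 3 had the highest Slc16a1 of its group in 3 subtypes, with 408 CPM in capillary EC (the other WT-TgN3 mice 252 to 288), 613 CPM in capillary-venous EC (429 to 470.0) and 459 CPM in venous EC (214 to 279). Slc2a1 stood at 54.7 CPM in the pericytes of R182C-TgN3 1, against 22.4 to 32.2 CPM in the other R182C-TgN3 mice. In venous EC of R182C-TgN3 2 Slc3a2 was low, at 215 CPM against 262 to 281 CPM, and Slc7a5 was high in fenestrated EC of R182C-TgN3 5, at 181.9 CPM against 57.2 to 98.2 CPM. Slco1c1 reached 786 CPM in venous EC of WT-TgN3 5, against 529 to 602 CPM. The cause was not tested for any of these.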

How the results depend on the processing

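Of 419 counts of called carriers, 415 stayed within 1.5 times the main count. In arterial EC 3 carriers were called higher with R182C-TgN3 mice alone and 2 with WT-TgN3 mice alone, in place of 5. With WT-TgN3 mice alone 2 in place of 6 were called lower in capillary-venous EC and 3 in place of 6 higher in fenestrated EC, fits with fewer samples. Leaving out 1 mouse at a time gave 5 to 6 higher in arterial, 4 to 7 higher in venous and 5 to 6 higher in fenestrated EC. Of 1358 values of single carriers between classes, 8 lost and 4 gained the threshold, and Slc16a1 in venous EC, not called, went from 0.042 to -0.0045 with WT-TgN3 mice alone. Slc39a10 in pericytes, not called, turned from -0.95 to 0.51 on the log2 scale with Leiden clusters, which held 745 cells against 535. The cause was not tested. The genotype comparison had 0 carriers called under every alternative run, and with same-age, same-number mice paired, a replicate block, 0 in all 8 classes. The labels do not say that a number marks shared animals, and same-numbered mice did not deviate together in every pair (correlations across genes of -0.076 to 0.435 in arterial and -0.105 to 0.243 in capillary EC), so the numbers were not taken as pairs. Pericytes (10 mice, 535 cells) and choroid plexus (5 mice, 228 cells) limit what could be detected there. The Leiden cluster of choroid plexus held 701 cells, of which the gate kept 228.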

Other observations

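Smooth muscle cells were gated in the same libraries (2023 cells, 11 mice). Slc20a2, the phosphate carrier, had 93.9 to 147 CPM (median 122) there and Slc6a8, the creatine carrier, 30.4 to 49.9 CPM (median 41.5), against 31.5 and 12.8 CPM in capillary EC. Neither range overlaps that of capillary EC. Both carriers were also called higher than capillary EC in pericytes and in choroid plexus. Slc7a1, the carrier of cationic amino acids, was at 53.1 CPM against 514 in capillary EC. The endothelial markers, whose level the gate also limits, summed to 1.65% to 3.54% of their capillary level in these sums. Slc7a1 lay above that share.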
